A study of Mus musculus with 8 samples.

Results

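The genes by which naive lymphocytes enter, cross and leave lymph nodes were examined in RNAseq libraries of muscle pericytes and SMCs. The set holds 7 named genes, Ccr7, Cxcr5, Ccr9, S1pr1, Il7r, Klf2 and Foxo1, and each matched a single row by symbol among the 37979 genes listed. Both cell populations were sorted from hindlimb muscles of adult Ai14+/−;SM22α-Cre+ mice of both sexes, where the SM22α promoter drives Cre and Cre turns on tdTomato for good, so that any cell with a history of SM22α expression is labelled. Pericytes were taken as PDGFRβ+tdTomato− cells and SMCs as PDGFRβ+tdTomato+ cells, after CD31+ and CD45+ cells and dead cells were gated out. There were 4 libraries of each, numbered 1 to 4, and multiple sorts were combined for each library. Values are FPKM, fragment numbers scaled to transcript length and to the mapped reads of the library, and tests were run on log2(FPKM + 1), where differences are pericytes minus SMCs. On this scale the fold change of low genes is understated. Genes with a limma q value (Benjamini-Hochberg) below 0.05 are called higher, and those that also have a log2 fold change above 2 are called enriched.

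Naive T and B cells circulate between blood and lymphoid organs. Chemokine receptors guide them in, interleukin 7 keeps T cells alive, and the lipid sphingosine-1-phosphate (S1P) draws them out again. In naive T cells the transcription factors Foxo1 and Klf2 hold this program on, and activation of the cell through its antigen receptor turns much of it off. Several of these genes also work elsewhere, since Klf2 and S1pr1 are prominent in endothelium and Foxo1 is used by many cell types.

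Summed FPKM was between 656405 and 782014 in 7 libraries and was 1190435 in pericyte replicate 2. Low FPKM values gave relative depths of 0.866 to 1.07, but read numbers are unknown and no counting error can be given. Of 9 mural cell markers, 1 was higher in SMCs and 0 were higher in pericytes by limma (5 and 0 at an unadjusted p below 0.05), where 11.2% and 10.6% of all genes tested were. Each of these 9 was lower in every pericyte library than in the SMC library of the same number. Of 7 smooth muscle markers, limma called 0 (3 higher in SMCs at an unadjusted p below 0.05). Pdgfrb, the gene of the sorted surface marker, was at 3.21 to 17.6 FPKM in pericytes and 15.6 to 91.5 FPKM in SMCs (limma q = 0.0973). Pdgfrb passed as higher in SMCs in 3 of 17 alternatives (q down to 0.00104), as did the smooth muscle genes Acta2 in 3 and Tagln in 2. Ptprc, which encodes the excluded CD45, was at 80.6 to 230 FPKM in pericytes and 4.34 to 11.9 FPKM in SMCs (limma q = 4.0e-04). Pecam1, which encodes the excluded CD31, was higher in SMCs, at 25.0 to 59.7 FPKM in pericytes and 102 to 301 FPKM in SMCs (limma q = 0.00873). The authors' main text excludes CD31+ cells, whereas a legend in their supplement writes both gates as CD31+, and the main text was followed here. In bulk samples, fewer cells of a type and less RNA per cell cannot be told apart, and this applies to every difference below.

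Ccr7 encodes the receptor that guides naive T cells, B cells and mature dendritic cells into lymph nodes. The gene model covers 99005510 to 99016391 of chromosome 11 (NCBI Build 37, minus strand). In pericyte replicates 1 to 4, Ccr7 was at 1273, 1224, 1172 and 1176 FPKM. In SMC replicates 1 to 4, it was at 58.7, 90.8, 37.3 and 72.4 FPKM. The lowest pericyte library was 12.9 times the highest SMC library, so the groups did not overlap. Mean FPKM was 1211 ± 47.3 for pericytes and 64.8 ± 22.6 for SMCs (SD, n = 4 each). The log2 fold change was 4.27 (standard error 0.25, 95% interval 3.69 to 4.86, limma q = 5.5e-05). Ccr7 alone made up 78.0% to 83.5% of the summed FPKM of the 7 genes in pericyte libraries, and 26.8% to 53.2% in SMC libraries.

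Cxcr5 encodes the receptor that brings B cells and follicular helper T cells into B cell follicles. Its position is 44319871 to 44334504 of chromosome 9 (NCBI Build 37, minus strand). It was at 49.5, 45.4, 41.9 and 45.0 FPKM in pericyte replicates 1 to 4. The SMC replicates had 1.11, 0.878, 0.301 and 0.754 FPKM, all far below the pericyte libraries. Mean FPKM was 45.5 ± 3.12 for pericytes and 0.761 ± 0.340 for SMCs (SD, n = 4 each). Its log2 fold change was 4.74 (standard error 0.15, 95% interval 4.39 to 5.09, limma q = 5.1e-06).

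Ccr9 encodes the receptor for a chemokine of the thymus and small intestine. The gene model covers 123587557 to 123691089 of chromosome 9 (NCBI Build 37, plus strand). It was at 28.5, 23.3, 29.2 and 33.7 FPKM in pericyte replicates 1 to 4, and at 1.12, 1.15, 1.01 and 1.03 FPKM in SMC replicates 1 to 4. No SMC library approached a pericyte library, and the SMC libraries were close to each other. Mean FPKM was 28.7 ± 4.26 for pericytes and 1.08 ± 0.0716 for SMCs (SD, n = 4 each). The log2 fold change was 3.83 (standard error 0.11, 95% interval 3.57 to 4.08, limma q = 4.9e-06). In the annotation, exons of Ccr9 overlap exons of Slc6a20a, Gm17200 and Gm17021. These genes were at 0.765 FPKM or less in every library, and whether reads were counted by strand is not given in the sources used here.

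Il7r encodes the alpha chain of the receptor for interleukin 7, a survival factor of naive and memory T cells. Its position is 9435916 to 9459631 of chromosome 15 (NCBI Build 37, minus strand). Pericyte replicates 1 to 4 had 76.5, 62.6, 67.4 and 69.7 FPKM, and SMC replicates 1 to 4 had 1.37, 2.24, 1.24 and 2.14 FPKM. The lowest pericyte library was 27.9 times the highest SMC library. Mean FPKM was 69.0 ± 5.77 for pericytes and 1.75 ± 0.514 for SMCs (SD, n = 4 each). The log2 fold change was 4.69 (standard error 0.14, 95% interval 4.35 to 5.02, limma q = 4.9e-06).

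S1pr1 encodes the receptor that lymphocytes use to leave lymph nodes along S1P, and endothelial cells express it as well. The gene model covers 115413351 to 115417973 of chromosome 3 (NCBI Build 37, minus strand). S1pr1 was at 182.7, 72.7, 141.5 and 99.4 FPKM in pericyte replicates 1 to 4. It was at 40.9, 52.9, 81.9 and 110.6 FPKM in SMC replicates 1 to 4. The groups overlapped, since SMC replicates 3 and 4 were above pericyte replicate 2, and SMC replicate 4 was also above pericyte replicate 4. Mean FPKM was 124 ± 48.3 for pericytes and 71.6 ± 31.2 for SMCs (SD, n = 4 each). The log2 fold change of 0.80 (standard error 0.39, 95% interval -0.12 to 1.72) did not pass the test (limma q = 0.219).

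Klf2 encodes a zinc finger factor needed for S1pr1 expression in lymphocytes, which is also induced by flow in endothelium. Its position is 74842932 to 74845555 of chromosome 8 (NCBI Build 37, plus strand). Klf2 was at 14.5, 28.4, 8.41 and 11.0 FPKM in pericyte replicates 1 to 4, and at 21.8, 18.8, 14.5 and 15.1 FPKM in SMC replicates 1 to 4. The range of the SMC libraries lay inside that of the pericyte libraries. Mean FPKM was 15.6 ± 8.92 for pericytes and 17.5 ± 3.44 for SMCs (SD, n = 4 each), with a log2 fold change of -0.28 (standard error 0.35, 95% interval -1.10 to 0.53, limma q = 0.658).

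Foxo1 encodes a forkhead factor held inactive by PI3K and AKT signalling, which in naive T cells drives Klf2, Il7r and Ccr7. The gene model covers 52072259 to 52154031 of chromosome 3 (NCBI Build 37, plus strand). Foxo1 was at 8.13, 8.87, 6.17 and 3.99 FPKM in pericyte replicates 1 to 4, and at 4.79, 3.91, 3.15 and 3.19 FPKM in SMC replicates 1 to 4. In total, 3 of 4 pericyte libraries were above every SMC library, and pericyte replicate 4 was below SMC replicate 1. Mean FPKM was 6.79 ± 2.19 for pericytes and 3.76 ± 0.767 for SMCs (SD, n = 4 each). The log2 fold change of 0.68 (standard error 0.23, 95% interval 0.13 to 1.22) did not pass the test (limma q = 0.0821). Foxo1 passed without pericyte replicate 4 (log2 fold change 0.88, limma q = 0.0156) and in a fit blocked by replicate number (limma q = 0.0396), and it was higher in pericytes in 4 of 4 same-numbered pairs. Exons of Foxo1 overlap those of RP24-337A16.1 on the opposite strand, which was at 0.985 FPKM or less in every library.

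**Figure D1:**
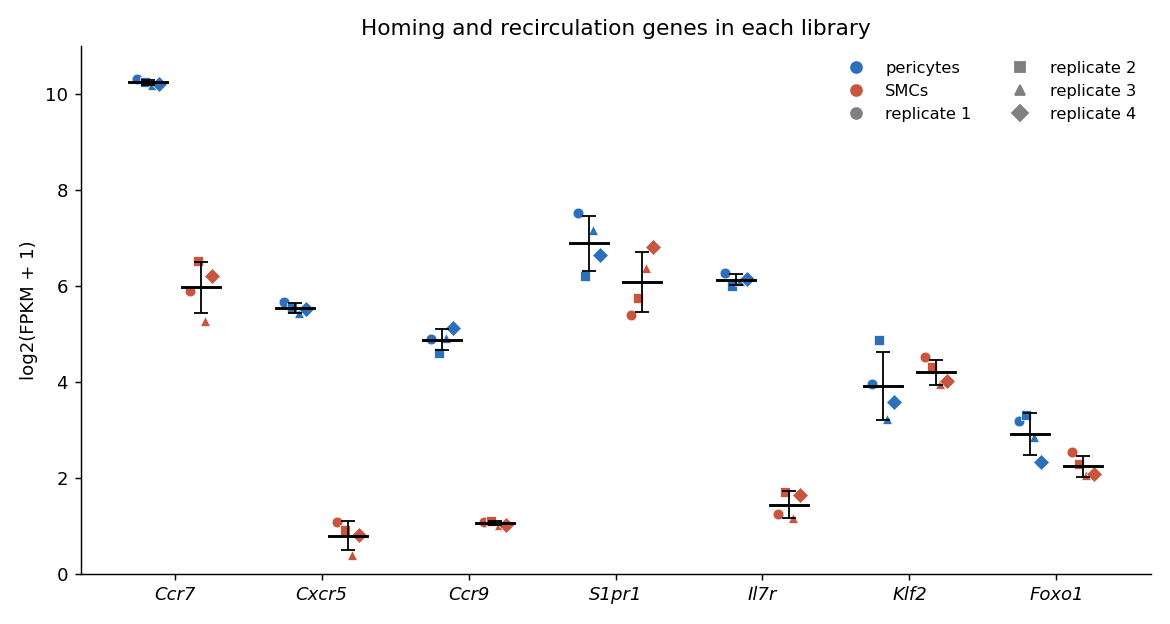
The 7 genes are on the horizontal axis and log2(FPKM + 1) is on the vertical axis, with a point for each library, shaped by replicate number, and a bar and whiskers for the mean ± SD of the 4 libraries. Pericyte and SMC points are apart for Ccr7, Cxcr5, Ccr9 and Il7r and overlap for S1pr1, Klf2 and Foxo1.

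Thus 4 of the 7 genes were pericyte-enriched and 0 were SMC-enriched, where limma called 3.24% of the 27414 genes tested pericyte-enriched and 2.66% SMC-enriched. No member was higher in SMCs at an unadjusted p below 0.05 either. The same 4 genes had every pericyte library above every SMC library, as had 12.1% of the genes tested. The median log2 fold change of the 7 genes was 3.83, and each was chosen with earlier results of these data known. The number of pericyte-enriched members was 4 in each of 17 alternatives, among them 8 that left out a library. Without pericyte replicate 2, whose summed FPKM stood apart, the same 4 genes were pericyte-enriched. Klf2 then had a log2 fold change of -0.60 (limma q = 0.107) and S1pr1 of 1.03 (limma q = 0.128), and neither passed.

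**Figure D2:**
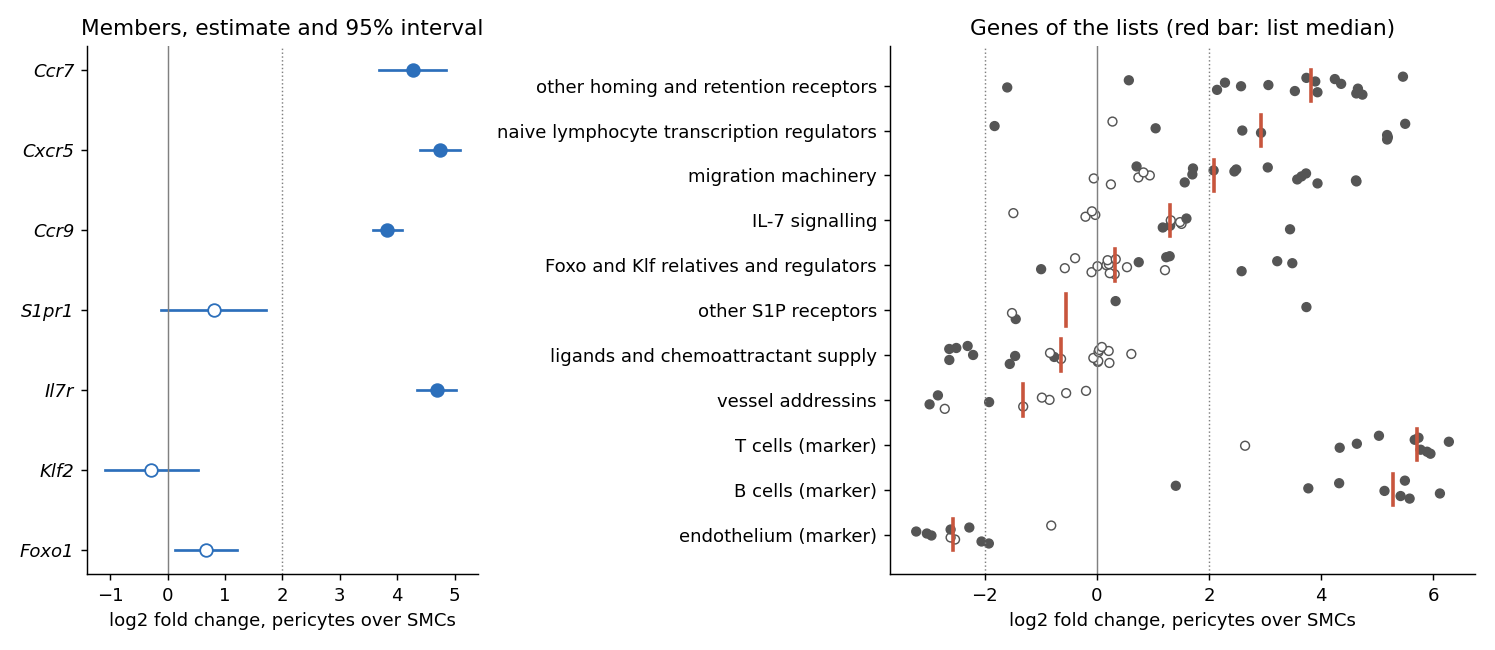
The left panel plots the log2 fold change of log2(FPKM + 1), pericytes over SMCs, for the 7 genes with 95% intervals, and the right panel plots a point for each gene of the other lists with the list median as a red bar. Filled points have a limma q value below 0.05, dotted lines mark a log2 fold change of 2 in either direction, and Ccr7, Cxcr5, Ccr9 and Il7r are the members beyond 2.

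FPKM is scaled to transcript length, so levels of different genes could be ordered. In pericytes, the order by mean FPKM was Ccr7, S1pr1, Il7r, Cxcr5, Ccr9, Klf2 and Foxo1. The library ranges of S1pr1 and Il7r overlapped, as did those of Ccr9 and Klf2 and those of Klf2 and Foxo1, although S1pr1 was above Il7r within each of the 4 pericyte libraries. In SMCs, the order was S1pr1, Ccr7, Klf2, Foxo1, Il7r, Ccr9 and Cxcr5. S1pr1 and Ccr7 were not distinguishable there, with S1pr1 above Ccr7 in 2 of 4 libraries, and the ranges of Ccr9 and Cxcr5 overlapped. Klf2 and Foxo1 were thus the lowest of the 7 genes in pericytes, while in SMCs both were above Il7r, Ccr9 and Cxcr5 with no overlap.

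The 4 pericyte-enriched receptors varied little among the pericyte libraries in FPKM as deposited. The coefficient of variation (SD over mean of FPKM) was 3.90% for Ccr7, 6.87% for Cxcr5, 8.36% for Il7r and 14.8% for Ccr9. The median over 13596 genes was 36.8%, and few of these genes had a smaller coefficient than Ccr7. S1pr1 had 38.9%, Klf2 had 57.3% and Foxo1 had 32.2%. These small values held with median-ratio scaling (5.08% for Ccr7) and not with TPM scaling, which divides by the summed FPKM that was highest in pericyte replicate 2. With TPM scaling the coefficient was 23.0% for Ccr7, 24.5% for Cxcr5, 28.3% for Il7r and 30.7% for Ccr9, against 32.3% for Klf2, 33.7% for Foxo1, 54.1% for S1pr1 and a median of 38.8% over genes. The ratio of Ccr7 to Cxcr5 within a library, which a single scaling factor for each library leaves as it is, was between 25.7 and 28.0 in pericytes and between 52.9 and 123.8 in SMCs. The ratio of Il7r to Cxcr5 was between 1.38 and 1.61 in pericytes and between 1.24 and 4.13 in SMCs. Both SMC ratios divide by Cxcr5 at 0.301 to 1.11 FPKM, where small errors change a ratio much. The largest of each came from SMC replicate 3, where Cxcr5 was at 0.301 FPKM.

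The replicates also differed in a way that the groups do not explain. Cxcr5, Klf2 and Foxo1 were higher in replicates 1 and 2 than in replicates 3 and 4 in both groups, a pattern shown by 12.9% of the genes tested. For Cxcr5, pericyte replicates 2 and 4 were nearly equal. The mean of replicates 1 and 2 exceeded that of replicates 3 and 4 by 1.0 in pericytes and 0.43 in SMCs for Klf2, and by 0.67 and 0.35 for Foxo1, on the log2(FPKM + 1) scale. All 8 samples carry the same batch label, so these replicate numbers are no labelled batch. Within replicates 1 and 2, the difference between pericytes and SMCs on this scale was 1.29 for S1pr1 and 0.83 for Foxo1, and within replicates 3 and 4 it was 0.31 and 0.52. For Klf2 it was 0.005 within replicates 1 and 2 and -0.57 within replicates 3 and 4. Ccr7, Il7r, Cxcr5 and Ccr9 had differences of 4.08, 4.66, 4.6 and 3.65 in replicates 1 and 2 and of 4.47, 4.71, 4.88 and 4.0 in replicates 3 and 4.

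**Figure D3:**
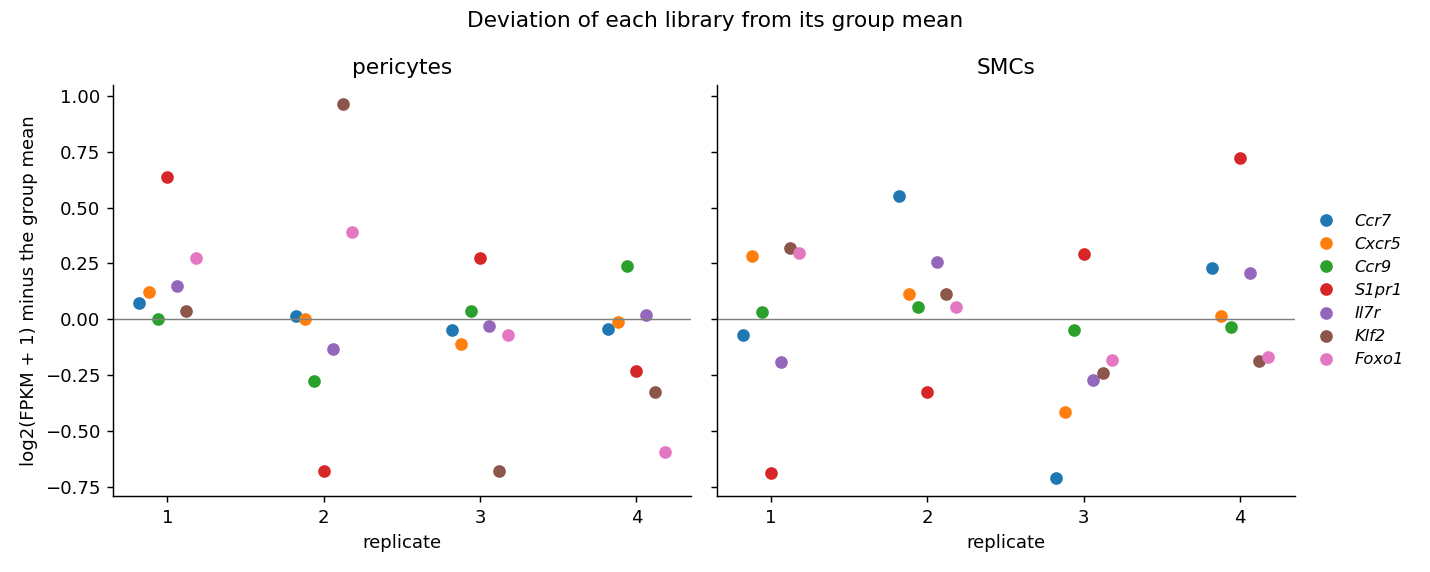
The replicate number is on the horizontal axis and the deviation of log2(FPKM + 1) from the mean of the 4 libraries of the group is on the vertical axis, for pericytes on the left and SMCs on the right. Ccr7, Cxcr5 and Il7r lie close to 0 in pericytes, and Klf2 and Foxo1 lie above 0 in replicates 1 and 2 and below 0 in replicates 3 and 4 of both groups.

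The sequences before the transcription start are shown for the 4 members matched in the RefSeq promoter table (build GRCm38.p6), as they set a pair of pericyte-enriched receptors beside a pair of transcription factor genes that did not pass the test. Ccr7, S1pr1 and Cxcr5 were not matched. Each sequence holds the 250 bases before the start, read 5′ to 3′ on the strand of the gene, and capitals mark CG dinucleotides. Il7r is at chr15:9529877-9530126 (minus strand), Ccr9 at chr9:123766961-123767210 (plus strand), Klf2 at chr8:72318812-72319061 (plus strand) and Foxo1 at chr3:52268087-52268336 (plus strand).
Il7r: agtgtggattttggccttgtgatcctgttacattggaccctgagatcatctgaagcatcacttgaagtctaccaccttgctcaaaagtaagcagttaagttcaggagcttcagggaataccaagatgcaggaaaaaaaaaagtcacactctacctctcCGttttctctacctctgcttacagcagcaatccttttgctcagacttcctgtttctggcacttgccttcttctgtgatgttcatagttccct
Ccr9: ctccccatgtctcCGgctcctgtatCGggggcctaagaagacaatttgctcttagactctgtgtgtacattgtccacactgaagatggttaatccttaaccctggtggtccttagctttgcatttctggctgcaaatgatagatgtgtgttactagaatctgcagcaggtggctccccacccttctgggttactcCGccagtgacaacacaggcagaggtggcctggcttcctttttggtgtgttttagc
Klf2: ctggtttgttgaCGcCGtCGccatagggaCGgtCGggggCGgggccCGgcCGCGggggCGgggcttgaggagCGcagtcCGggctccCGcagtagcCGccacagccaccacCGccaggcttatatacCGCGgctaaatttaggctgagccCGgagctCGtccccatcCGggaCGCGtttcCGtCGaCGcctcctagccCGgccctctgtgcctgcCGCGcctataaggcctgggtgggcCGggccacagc
Foxo1: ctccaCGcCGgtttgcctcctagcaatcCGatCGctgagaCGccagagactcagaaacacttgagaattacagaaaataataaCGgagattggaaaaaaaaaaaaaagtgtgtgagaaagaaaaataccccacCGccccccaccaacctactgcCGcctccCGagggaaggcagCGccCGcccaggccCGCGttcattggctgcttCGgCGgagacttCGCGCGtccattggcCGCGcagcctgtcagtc
Il7r held 1 CG dinucleotide and Ccr9 held 3, whereas Klf2 held 29 and Foxo1 held 20. Over 32851 promoters of this length the median was 6, and 37.8% held 3 or fewer. The forkhead motif TGTTTAC (or GTAAACA on the other strand) was in 0 of the 4 sequences and in 3.17% of all promoters. The KLF motif CACCC (or GGGTG on the other strand) was found in Klf2 and Ccr9, and in 52.0% of all promoters. Neither motif contains the other, and a match or its absence in this window is a description only.

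The profile of each gene over the 8 libraries was compared with those of 13612 genes whose mean reached 1 FPKM. Likeness was the root-mean-square difference of log2(FPKM + 1) after each profile was centred on its mean. The genes nearest to Ccr7 were Gpr183, an oxysterol receptor that positions B cells (0.150), and Blk, a B cell kinase (0.160), followed by Fam169b (0.213). Il7r was nearest to Sash3, a lymphocyte adaptor (0.164), Bank1, a B cell adaptor (0.202), and Cxcr5 (0.205). Cxcr5 was nearest to Cd96, a receptor of T cells and natural killer cells (0.164), then Sash3 (0.203) and Il7r (0.205). Ccr9 was nearest to Gpr174, a lysophosphatidylserine receptor of lymphocytes (0.174), the T cell receptor segment Trav10n (0.207), whose reads can be shared with near-identical copies, and the complement receptor gene Cr2 (0.209).

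The other 3 members had nearest genes of other kinds. Klf2 was nearest to Pycrl, a gene of proline synthesis (0.0637), and to the mitochondrial ribosomal protein genes Mrps18a (0.0657) and Mrps10 (0.0991). S1pr1 was nearest to Klhl25 (0.175), Rab27a (0.217) and Gripap1 (0.223). Foxo1 was nearest to B630005N14Rik (0.110), Scamp3 (0.112) and Snrnp48 (0.120).

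S1pr1 was set beside the other S1P receptors. S1pr4, a receptor of lymphocytes, was at 52.5 to 58.7 FPKM in pericytes and 1.58 to 6.20 FPKM in SMCs, and it was pericyte-enriched (log2 fold change 3.74, limma q = 4.2e-04). S1pr2 was higher in SMCs, with a mean FPKM of 16.4 ± 2.98 there and 5.40 ± 1.13 in pericytes (SD, n = 4 each, log2 fold change -1.45, limma q = 9.8e-04). S1pr3 was at 45.5 to 193 FPKM in SMCs and 15.5 to 69.6 FPKM in pericytes and did not pass the test (limma q = 0.134), although it passed as higher in SMCs in 3 of 17 alternatives (q down to 0.0375). S1pr5 was at 0.337 FPKM or less in every library and was higher in pericytes (log2 fold change 0.34, limma q = 0.00478). S1pr1 was therefore the highest of the 5 receptors by mean FPKM in pericytes, and S1pr3 was the highest in SMCs, where the ranges of both genes overlapped. Cd69, whose product binds S1PR1 and removes it from the cell surface, was pericyte-enriched, at 289 to 612 FPKM in pericytes and 4.22 to 15.1 FPKM in SMCs (log2 fold change 5.46, limma q = 1.1e-04).

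The ligands of these receptors were listed with genes that make, carry or break down S1P and with Ccrl1, a receptor that clears chemokines, as 17 genes in 19 rows, because Ccl25 and Ccrl1 each appear as overlapping gene models. Of the 19 rows, limma called 8 higher in SMCs, 5 of them SMC-enriched, and 0 higher in pericytes (10 and 0 at an unadjusted p below 0.05), where 10.6% of the genes tested were higher in pericytes and 11.2% higher in SMCs. The SMC-enriched rows were Cxcl13, Sphk1, the lipid phosphatase genes Ppap2a (log2 fold change -2.63) and Ppap2b (-2.51), whose products remove phosphate from S1P, and 1 of the rows of Ccrl1 (-2.30). Cxcl13, the ligand of CXCR5, was at 8.96 to 26.2 FPKM in SMCs and 0.769 to 3.97 FPKM in pericytes (log2 fold change -2.63, limma q = 0.00381). Il7, the ligand of the interleukin 7 receptor, had a mean FPKM of 1.76 ± 0.308 for SMCs and 0.632 ± 0.193 for pericytes (SD, n = 4 each, log2 fold change -0.76, limma q = 0.00410). Sphk1, a kinase that makes S1P, was at 38.8 to 102 FPKM in SMCs and 8.71 to 13.2 FPKM in pericytes (log2 fold change -2.21, limma q = 0.00240). Ccl19, a ligand of CCR7, was higher in SMCs, with a mean FPKM of 11.3 ± 5.94 there and 3.04 ± 1.41 in pericytes (SD, n = 4 each, log2 fold change -1.55, limma q = 0.0269), and lost its call in 5 of 17 alternatives (q up to 0.0850). Ccl21a, another CCR7 ligand gene with near-identical copies, was at 2.42 FPKM or less in every library. Ccl25, the ligand of CCR9, did not pass in either of its rows (limma q = 0.114 and 0.864).

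**Figure D4:**
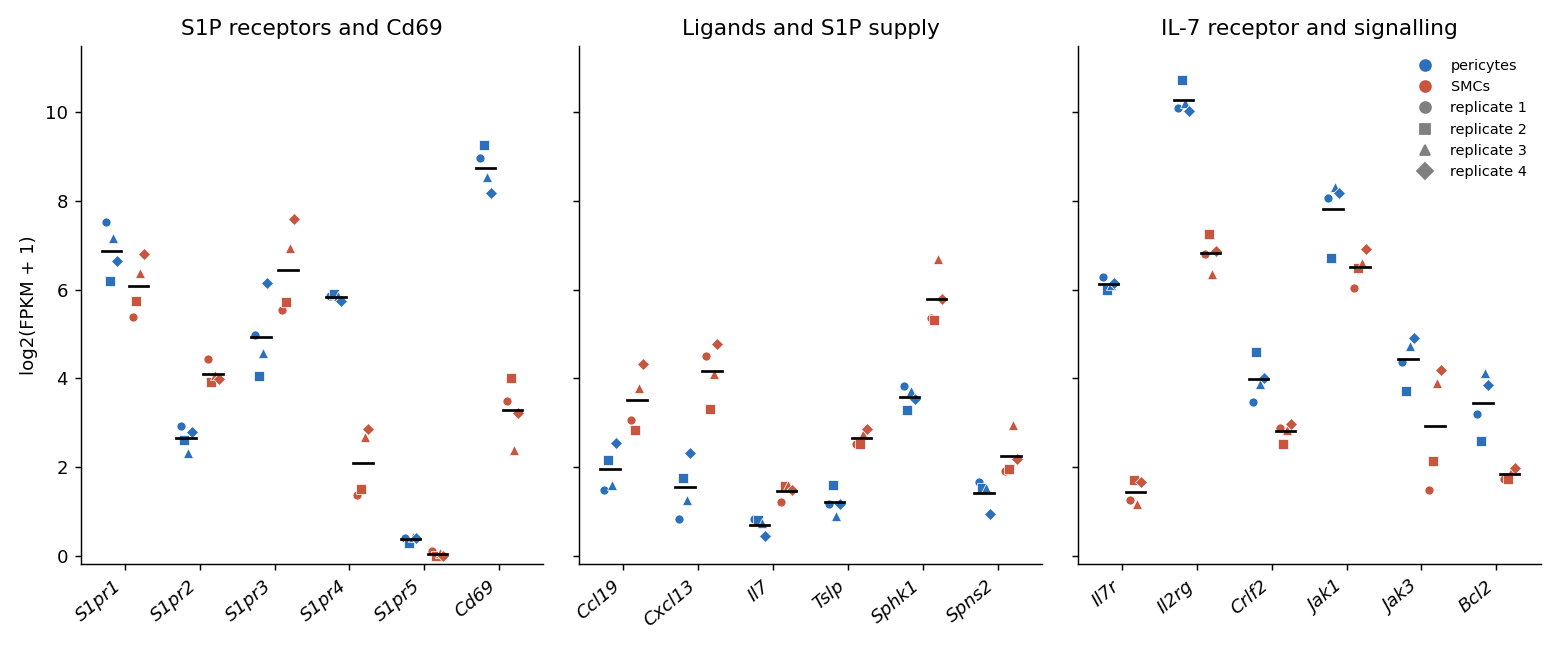
Each panel plots log2(FPKM + 1) of named genes with a point for each library, shaped by replicate number, and a bar for the mean of the 4 libraries. S1pr4, Cd69, Il7r and Il2rg are higher in pericytes and Cxcl13, Il7, Tslp and Sphk1 are higher in SMCs, while S1pr1 overlaps.

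Il7r acts with partners and a signalling chain, listed as 11 genes, of which limma called 4 higher in pericytes and 0 higher in SMCs (6 and 1 at an unadjusted p below 0.05), where 10.6% of all genes tested were higher in pericytes and 11.2% in SMCs. Il2rg, the common gamma chain that pairs with the Il7r product, was at 1041 to 1704 FPKM in pericytes and 80.4 to 151 FPKM in SMCs (log2 fold change 3.45, limma q = 8.6e-05). Crlf2, the partner of the Il7r product in the receptor for Tslp, had a mean FPKM of 15.4 ± 5.52 for pericytes and 6.03 ± 0.907 for SMCs (SD, n = 4 each, log2 fold change 1.18, limma q = 0.0108). Bcl2, a survival gene downstream of the receptor, was at 5.03 to 16.4 FPKM in pericytes and 2.29 to 2.95 FPKM in SMCs (limma q = 0.0111), a call lost in 1 of 17 alternatives (q = 0.0526). Jak1, the kinase bound to the Il7r product, was at 105 to 317 FPKM in pericytes and 65.1 to 120 FPKM in SMCs (limma q = 0.0466), a call lost in 12 of 17 alternatives.

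Around Foxo1 and Klf2, a list of 19 relatives and regulators had 6 genes higher in pericytes, 1 higher in SMCs and 12 that did not pass (7 and 2 higher at an unadjusted p below 0.05), against 10.6% and 11.2% of all genes tested. Foxo3, a forkhead relative of Foxo1, had a mean FPKM of 6.70 ± 2.29 for pericytes and 5.08 ± 1.34 for SMCs (SD, n = 4 each, limma q = 0.474). Foxp1, a forkhead factor of naive T cells, was pericyte-enriched (88.3 to 133 FPKM against 13.4 to 22.2 FPKM, log2 fold change 2.58, limma q = 2.6e-04). Pik3cd, the leukocyte PI3K subunit upstream of Foxo1, was at 41.7 to 86.5 FPKM against 3.86 to 8.48 FPKM (log2 fold change 3.49, limma q = 2.7e-04). Klf4, a relative of Klf2, was the gene higher in SMCs (25.8 to 39.4 FPKM against 9.79 to 24.6 FPKM, limma q = 0.0382), a call lost in 9 of 17 alternatives.

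For the lists that follow, the shares of all genes tested were 10.6% higher in pericytes and 11.2% higher in SMCs. The shares of enriched genes were 3.24% for pericyte-enriched and 2.66% for SMC-enriched. Among 16 other homing and retention receptors, 15 were higher in pericytes, 14 of them pericyte-enriched. The exception was Itgb1, the integrin beta chain of most cell types, which was higher in SMCs (limma q = 0.00908). Of 9 listed genes of naive lymphocytes, most of them transcription regulators, 7 were higher in pericytes and 1, Id3, was higher in SMCs. Tcf7 was at 69.8 to 82.3 FPKM against 0.856 to 1.36 FPKM (log2 fold change 5.18, limma q = 6.4e-07). The list also held the kinase gene Txk, which was higher in pericytes, and the actinin gene Actn1, which did not pass. Of 19 genes of the migration machinery that acts below these receptors, limma called 14 higher in pericytes and 0 in SMCs (15 and 0 at an unadjusted p below 0.05). Adrbk1, a kinase that desensitises such receptors, was at 22.2 to 31.4 FPKM against 3.20 to 4.36 FPKM (log2 fold change 2.45, limma q = 3.3e-05). Of 9 vessel addressins, which receive homing lymphocytes, limma called 3 higher in SMCs and 0 in pericytes (4 and 0 at an unadjusted p below 0.05).

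Markers of other cells also differed between the groups, lymphocyte markers in the direction of the 4 pericyte-enriched members and most endothelial and fibroblast markers in the other. Of 10 T cell markers, 9 were pericyte-enriched (Cd4 did not pass, q = 0.0747, while all 10 were pericyte-enriched in 4 of 17 alternatives), with a summed level of 1952 to 2960 FPKM in pericyte libraries and 34.9 to 65.3 FPKM in SMC libraries. Of 8 B cell markers, 7 were pericyte-enriched and all 8 were higher in pericytes, with summed levels of 900 to 2122 FPKM and 10.5 to 34.0 FPKM. None of these markers was listed at 0 in a whole group. Their median log2 fold changes were 5.71 for T cells and 5.28 for B cells. Of 10 endothelial markers, 7 were higher in SMCs (10 at an unadjusted p below 0.05) and 6 SMC-enriched (4 to 9 over the alternatives), with summed levels of 383 to 1243 FPKM in SMC libraries and 101 to 170 FPKM in pericyte libraries, and none was listed at 0 in a whole group. Of 6 fibroblast markers, 5 were SMC-enriched and 1, Dcn, was pericyte-enriched and listed at 0 in all SMC libraries. Their summed levels were 3257 to 4486 FPKM in SMC libraries and 798 to 1642 FPKM in pericyte libraries. Dcn alone was at 509 to 1165 FPKM in pericyte libraries, most of that sum, and added nothing to the SMC sum. Whether its 0 in SMC libraries, where Lum was at 1131 to 1971 FPKM, is a true level was not tested. The part of these cell types in the levels of the 7 genes, S1pr1 and Klf2 included, was not tested.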

How the data were processed

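The authors checked reads with FastQC, mapped them with TopHat and Bowtie2 to NCBI Build 37 using an Ensembl annotation, and deposited 1 table of FPKM values, unlogged and unfiltered. The program that computed FPKM and whether reads were counted by strand are not given in the sources used here. The 7 genes were found by symbol, and positions came from GENCODE M1 on the same build. A two-sided limma test (version 3.58.1, R 4.3.3) compared log2(FPKM + 1) between groups for the 27414 genes that were not 0 everywhere. The other 10565 genes were left out. The test was checked on simulated data. The authors describe 4 biological replicates, but the labels do not say which animals gave which library. The p-values set the difference between groups against the spread between these libraries, which may be technical in part.

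The members and all gene lists were chosen with earlier results of these data known, so counts over them are descriptions. Named genes were the members, genes of the lists, the 3 genes nearest to each member and the genes of the sort. Values of 1 listed gene are not reported here. Other settings were a pseudocount of 0.1, a stricter filter (1 FPKM in 4 or more libraries), no filter, TPM, quantile and median-ratio scaling, the replicate number as a block, an intensity trend and each library left out. A covariate for replicates 1 and 2 against 3 and 4 was added after seeing the data. Python 3.11.15, pandas 2.3.3 and matplotlib 3.10.9 were used.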

Additional observations from a re-analysis of the deposited data

Results flagged for a closer look

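In a group of 4 libraries, a library was taken to stand apart when its gap to the nearest library exceeded Dixon's 95% critical value. Of 104 groups looked at, 5 had such a library, and chance gives about 1 in 20. None was a group of the 7 homing and recirculation genes. Pericyte replicate 2 stood apart for Gpr183 (129.6 FPKM, others 99.1 to 103.6) and Jak1 (104.8 FPKM, others 268.7 to 316.6). Pericyte replicate 3 stood apart for Dntt (9.02 FPKM, others 17.0 to 18.9). SMC replicate 4 stood apart for Pik3cd (8.48 FPKM, others 3.86 to 4.38). SMC replicate 1 stood apart for Id3 (1550 FPKM, others 1037 to 1109).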

How the results depend on the processing

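Ccr7, Il7r, Cxcr5 and Ccr9 kept their direction and their call in each of 17 alternatives, with log2 fold changes of 4.04 to 4.46, 4.6 to 5.26, 4.6 to 5.83 and 3.75 to 4.6. S1pr1 (0.57 to 1.04) and Klf2 (-0.60 to -0.06) kept their direction and passed in none of the 17. Foxo1 (0.50 to 0.88) passed with the replicate block (q = 0.0396), with the covariate for replicates 1 and 2 against 3 and 4 (q = 0.0132) and without pericyte replicate 4 (q = 0.0156). The cause was not tested, and the covariate, added after seeing the data, follows a pattern that Foxo1 itself shows. A pseudocount of 0.1 gave 1421 SMC-enriched genes against 728, and 1328 pericyte-enriched genes against 888. TPM scaling moved the median log2 fold change of genes with at least 1 FPKM by -0.21 and gave 822 pericyte-enriched and 1019 SMC-enriched genes, so that 44.6% of enriched genes were pericyte-enriched against 55.0%. With each library left out, pericyte-enriched genes numbered 840 to 879 and SMC-enriched genes 601 to 760.

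The replicate block gave 881 pericyte-enriched and 739 SMC-enriched genes and, apart from Foxo1, changed no call of the 7 genes, of which 4 were pericyte-enriched. Deviations from the group mean, across 13612 genes, correlated at 0.0794 to 0.474 between libraries of the same number (4 pairs, all positive). In total, 5 of 8 libraries correlated best with their own number. These values do not settle whether the numbers are pairs. The main fit left the libraries unpaired, and the block was run as an alternative. The number of reads is unknown, which limits what can be said of Cxcr5, Ccr9 and Il7r in SMCs, where they were near 1 FPKM.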

Other observations

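Genes of activated and effector T cells, whose program differs from that of naive cells, were higher in pericytes as well. Of 7 such genes, 7 were higher by limma and 6 were pericyte-enriched, where 10.6% of all genes tested were higher in pericytes and 3.24% pericyte-enriched. Gzma, a granule protease of cytotoxic cells, was at 109 to 254 FPKM in pericytes and 1.45 to 4.77 FPKM in SMCs (log2 fold change 5.59, limma q = 6.9e-05). Of 6 genes of immature thymocytes, which also use Ccr9, 3 were higher in pericytes and 1, Dntt, was pericyte-enriched. Dntt, the polymerase that adds bases at antigen receptor joints, was at 9.02 to 18.9 FPKM in pericytes and 0.0218 to 0.810 FPKM in SMCs (log2 fold change 3.48, limma q = 1.7e-04). Ptcra, another gene of immature thymocytes, was listed at 0 in all 8 libraries, and Rag1 was at 0.578 FPKM or less. Of 7 myeloid markers, limma called 0 higher in pericytes and 1, Emr1, higher in SMCs (0 and 3 at an unadjusted p below 0.05), where 11.2% of all genes tested were higher in SMCs. The summed level of the myeloid markers was 932 to 1937 FPKM in pericyte libraries and 1096 to 1741 FPKM in SMC libraries.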
